A study of Mus musculus with 26 samples.

Results

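The core of the CTCF motif was taken as positions 7 to 14 of the 19 bp match to the JASPAR matrix MA0139, numbered from 1 at the 5′ end of the motif strand. Its members were the cytosines of CpGs at these positions that at least 5 reads covered in merged CTCF M-ChIP. There were 2699 core cytosines among 35385 measured motif cytosines, or 7.63%. They lay in 1531 of 15972 measured motif matches (9.59%) and in 1451 merged peaks, on 21 chromosomes. A cytosine inside 2 overlapping matches was counted in each, so that the members were 2652 distinct cytosines. Methylation did not choose the members, but coverage, a called merged peak and a deposited motif match, here with scores from 7.77, were needed, so that peak strength and score took part in the choice.

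In CTCF M-ChIP, chromatin bound by an antibody to CTCF was tagmented with a transposome that carried methylated adaptors and was then bisulfite converted, so that 1 set of reads gave both occupancy and methylation. M-ATAC applied the same transposome and conversion to nuclei, where it marks accessible chromatin. The unconverted controls, CTCF M-ChIP-NC and M-ATAC-NC, were aliquots with methylated adaptors taken ahead of conversion, while CTCF ChIP and ATAC were made with Nextera transposase and were not converted. There were 4 libraries of M-ATAC and 2 of each other group named here. All came from KH2 mouse embryonic stem cells (mESC), a pluripotent line grown on irradiated feeder cells with LIF and pre-plated so that the feeders were removed. Whether the replicates came from separate cultures was not stated, so p-values between libraries measure only the spread between these samples. Methylation was deposited for merged replicates alone and has no replicate error. The 95% intervals below cover counting error only.

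CTCF is a zinc finger protein that binds insulators and, with cohesin, the anchors of chromatin loops. Its zinc fingers read the motif base by base, and the fingers in the middle of the protein contact the core. Cytosine methylation in mammals falls mostly on CpGs and can hinder CTCF where a CpG lies in its site, as is known from imprinted genes, where CTCF binds the unmethylated allele.

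The expression table fitted the label of the cells. All 9 markers of mESC were listed, from 132 TPM for Fgf4 to 5394 TPM for Dppa5a, and they summed to 8247 TPM. The 7 markers of feeder fibroblasts summed to 129 TPM, with Col1a1 the highest at 48.7 TPM, and the 7 markers of differentiated cells to 42.7 TPM, with Gata6 the highest at 18.2 TPM. None of these markers was at 0, and the part of feeder cells in the methylation values was not tested. Ctcf stood at 82.9 TPM and its germline paralog Ctcfl at 0.91 TPM, and of the cohesin subunits Rad21 stood at 222 TPM, Smc3 at 160.2 TPM and Smc1a at 90.2 TPM. The maintenance methyltransferase Dnmt1 stood at 107 TPM and its partner Uhrf1 at 161 TPM. The de novo enzymes Dnmt3a and Dnmt3b stood at 67.5 and 48.6 TPM and their cofactor Dnmt3l at 141 TPM. Of the enzymes that oxidise methylated cytosine, Tet1 stood at 80.1 TPM, Tet2 at 24.1 TPM and Tet3 at 1.86 TPM. The table merges replicates, so these levels have no error.

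A CpG in the core was rare, and it sat at a few places. The commonest base at each position of all 43074 deposited matches gave a motif without a CpG between positions 7 and 14, shown here to place the core, with no capitals since no CpG was measured in it.
consensus of the matches: tggccagaagagggcgcca
Across these matches a CpG began at position 7 in 1.27%, at position 8 in 0.529%, at position 9 in 1.22% and at position 12 in 1.10%. The C2 CpG, at positions 5 and 6, was found in 5.51% of the matches and the C12 CpG, at positions 15 and 16, in 31.1%. These core CpGs rested on bases that were uncommon at their positions, with G at position 8 in 4.87% of matches, C at position 9 in 1.26% and C at position 12 in 1.17%. Position 10 was G in 99.0% of matches and position 13 in 98.1%, so that a C just ahead of either made a CpG. A core CpG was measured in most of the matches that held one, 86.6% for the CpG from position 7, 75.9% from position 8, 86.1% from position 9 and 84.0% from position 12.

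The members thus came from 4 CpGs above all. The CpG at positions 7 and 8 gave 825 cytosines in 473 motifs, that at 9 and 10 gave 791 in 454, that at 12 and 13 gave 673 in 399 and that at 8 and 9 gave 285 in 173. The CpG at positions 6 and 7 added 76 cytosines, all on the other strand because its motif-strand cytosine lies outside the core, and 5 cytosines lay at position 14. There was 1 core CpG in 1459 motifs, 2 in 70 motifs and 3 in 2 motifs, and 42 of those with 2 had CpGs starting at positions 7 and 9. The motifs held 1488 distinct sequences and were spread evenly over the genome's strands, 750 on the plus and 781 on the minus strand.

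Core cytosines were mostly unmethylated where CTCF was bound. Of 31722 reads over them, 1625 were methylated, or 5.12% (95% Wilson interval 4.89 to 5.37). No methylated read was seen at 1995 of the 2699 cytosines (73.9%). Methylation was below 20% at 88.3% of them, between 20% and 80% at 10.6% and above 80% at 1.11%, or 30 cytosines. The median coverage was 10 reads, from 5 to 67, and at 5 reads 1 read is a step of 20%. Among the chromosomes with more than 4 core cytosines, pooled methylation ran from 2.47% on chromosome 3 to 6.89% on chromosome 2, while the 4 cytosines on chromosome Y had 5 methylated of 24 reads.

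The level went with coverage. At cytosines with 5 to 9 reads 9.58% of reads were methylated, against 4.18% with 10 to 19 reads and 2.1% with 20 or more. Coverage comes from the same reads as peak fold, and its part in the differences between sites was not tested. The threshold of the rule removed 996 of 3695 core cytosines with any read. Just inside it, the 299 cytosines with exactly 5 reads had 12% methylated reads, and just outside it the 315 with exactly 4 reads had 16.4%.

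Within the motif, the core lay between the C2 CpG and the flanks. Pooled methylation was 2.75% at positions 5 and 6, 8.84% at positions 1 to 4, 12.2% at positions 15 and 16 and 12% at positions 17 to 19, beside 5.12% in the core and 10.2% over all positions. The core was thus lower than positions 1 to 4 by a difference of -3.71 percentage points (95% Newcombe interval -4.05 to -3.38), and lower than positions 15 and 16 by -7.09 (-7.36 to -6.81) and 17 to 19 by -6.86 (-7.26 to -6.45). Each of these differences had the same sign on 20 of 20 chromosomes. The core was higher than positions 5 and 6 by 2.37 percentage points (2.09 to 2.66), on 19 of 20 chromosomes. Set against positions 15 and 16 of the same motifs, the core differed by -1.12 points and positions 5 and 6 by -0.687. Their intervals overlapped, so the pooled order of these 2 parts was not repeated there. The parts differ in which motifs carry them, and these pooled differences were not tested because cytosines of 1 merged library are not replicates. With at least 10 reads per cytosine the core exceeded positions 5 and 6 by 1.42 percentage points, and the other 3 differences moved by less than 1.5 times under each alternative.

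Among the core CpGs, the one at positions 8 and 9 stood apart. It had 10.9% methylated reads (95% Wilson interval 9.86 to 12), against 3.0% (2.68 to 3.35) for the CpG at 7 and 8, 4.79% (4.38 to 5.22) for that at 9 and 10 and 5.99% (5.49 to 6.54) for that at 12 and 13. Neighbouring registers of the motif, shifted by a single base, thus differed beyond counting error. The difference between the CpG at 7 and 8 and that at 8 and 9 was -7.91 percentage points (-9.09 to -6.80), and the latter was higher or equal on 18 of 20 chromosomes. It exceeded the CpG at 9 and 10 by 6.12 points (4.98 to 7.33), higher on 14 of 20 chromosomes, and that at 12 and 13 by 4.91 points (3.73 to 6.16), higher on 12. The direction against the last of these therefore varied among chromosomes. The share of cytosines above 80% followed the same order, 0.364% for the CpG at 7 and 8, 1.14% at 9 and 10, 1.19% at 12 and 13 and 3.51% at 8 and 9.

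The rarer core CpGs had few reads. The CpG at positions 6 and 7 had 6.07% methylated of 741 reads (4.57 to 8.03) and that at 11 and 12 had 2.69% of 372 reads (1.47 to 4.88). The CpG at 10 and 11 had 0 of 13 reads, which allows a share of up to 23.1%. That at 13 and 14 had 0 of 53 reads, which allows up to 5.66%, and that at 14 and 15 had 0 of 18, which allows up to 16.7%. The interval of the CpG at 6 and 7 lay between those at 7 and 8 and at 8 and 9, and that of 11 and 12 lay below those at 12 and 13 and at 8 and 9. The limit of the CpG at 13 and 14, from 4 motifs, lay below the interval at 8 and 9 alone. The CpGs at 10 and 11 and at 14 and 15 had too few reads to be placed.

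The higher methylation at positions 8 and 9 was seen away from promoters. Within 3 kb of a transcription start this CpG had 3.73% methylated reads (2.88 to 4.81) over 140 cytosines, beside 2.49% at 7 and 8, 2.75% at 9 and 10 and 3.74% at 12 and 13. Farther away it had 17.6% (15.8 to 19.5) over 145 cytosines, beside 3.39%, 6.17% and 8.22% in the same order. All 4 CpGs had the higher value away from promoters, and the CpG at 7 and 8 had the smallest gap. Whether the gap itself differed between CpGs was not tested.

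Of the core motifs, 750 also held a measured cytosine at positions 15 and 16, in 745 of them in a C12 CpG, and in these the core could be compared with those positions at the same site. Here 2.80% of core reads and 3.92% of reads at positions 15 and 16 were methylated, a difference of -1.12 percentage points (-1.53 to -0.721), far smaller than the -7.09 points over all motifs. The same comparison gave -0.687 (-0.974 to -0.401) for positions 5 and 6 in 1143 motifs. It gave 0.355 (-0.0573 to 0.768) for positions 1 to 4 in 1233 motifs and 0.947 (0.497 to 1.40) for positions 17 to 19 in 1151 motifs. The core was lower in 167 motifs, equal in 484 and higher in 99, and neither had a methylated read in 471. Motifs measured at both places were thus less methylated at both of them than the respective positions at large. Fisher's exact test per motif, two-sided with Benjamini-Hochberg adjustment over 4277 tests of motif parts against positions 15 and 16, called 0 of the 750 motifs lower in the core and 0 higher. Over all parts the called share was 0% lower and 0.0701% higher, or 3 tests. At this depth only a large difference could be called, so the 0 calls do not show that the parts were alike in single motifs. At an unadjusted p under 0.05 the core was lower in 5 motifs and higher in 1. For the other parts, positions 1 to 4 were lower in 7 and higher in 14. Positions 5 and 6 were lower in 7 and higher in 1, and positions 17 to 19 lower in 2 and higher in 9. These tests compare the reads of a merged library, not conditions. With cytosines of the motif strand alone the difference was -0.55 (-1.10 to 0.00564), so that its interval then reached 0.

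Each core CpG was also set against C12, with intervals that overlapped among the 4 CpGs, and whether they differed was not tested. The CpG at 7 and 8 had 2.11% methylated reads beside 3.81% at C12 in 225 motifs, a difference of -1.70 points (-2.41 to -1.0), and it was lower on 16 of 20 chromosomes. The CpG at 8 and 9 had 4.38% beside 4.48% in 75 motifs, a difference of -0.107 (-1.63 to 1.41) that this depth did not tell from 0, lower on 6 of 19 chromosomes. The CpG at 9 and 10 had 2.50% beside 3.19% (difference -0.691, -1.37 to -0.0235) and that at 12 and 13 3.42% beside 4.11% (difference -0.689, -1.50 to 0.121), each lower on 14 of 20 chromosomes. In motifs without a measured C12 CpG the same core CpGs were more methylated, at 3.79%, 16.7%, 7.05% and 9.15% in the order of their positions. Most of the methylated reads at positions 8 and 9 thus came from motifs in which C12 was not measured.

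Pooled over the core, the strands of a CpG differed by less than counting error. Over 1094 core CpGs with both cytosines measured, 4.31% of reads on the motif strand and 4.43% on the other strand were methylated, a difference of -0.118 percentage points (-0.599 to 0.363). At 715 of these CpGs neither strand had a methylated read, at 223 one strand had, and at 156 both had. Fisher's exact test per CpG with Benjamini-Hochberg adjustment over 14459 motif CpGs called 0 core CpGs, beside 0% of all of them, and at an unadjusted p under 0.05 there were 3 core CpGs and 190 of all. With a median of 10 reads per cytosine and this many tests, even a full difference between strands could hardly be called. The 0 calls therefore do not show that the strands of single CpGs were alike. Over all members, whether or not both strands were measured, the CpG at 7 and 8 had 2.45% methylated reads (2.05 to 2.92) on the motif strand and 3.55% (3.07 to 4.11) on the other, and that at 12 and 13 had 6.78% (6.04 to 7.61) and 5.19% (4.53 to 5.94). These CpGs thus leaned opposite ways, and where both strands were measured the intervals of their differences, -0.546 (-1.21 to 0.112) and 0.603 (-0.416 to 1.62), held 0. With at least 10 reads the pooled difference was 0.0126, of the other sign. Outside the core the difference between strands was -0.782 points (-1.10 to -0.465) at C2 and -2.79 (-3.06 to -2.52) at C12.

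M-ATAC measured part of the same cytosines in accessible chromatin as a whole. Of the core cytosines 1037 had at least 5 reads in both merged tables, with 2.28% methylated reads in CTCF M-ChIP and 1.54% in M-ATAC. The difference was 0.745 percentage points (0.408 to 1.09), and at 806 cytosines neither table had a methylated read. This was not particular to the core, since over all 10066 motif cytosines in both tables the difference was 0.653 (0.538 to 0.768). With at least 10 reads in both, 286 core cytosines were left and their difference was 0.246 (-0.183 to 0.681), an interval that holds 0. Fisher's exact test per cytosine with Benjamini-Hochberg adjustment over 10066 motif cytosines called 0 core cytosines, beside 0% of all. The median was 10 reads in each table, where even a full difference could hardly be called over this many tests. The 0 calls therefore do not show that the assays were alike at single cytosines. At an unadjusted p under 0.05 there were 3 core cytosines, all in the CpG at 9 and 10 and all higher in CTCF M-ChIP, and 20 of all. The tests compare the reads of 2 merged libraries, not conditions, and which of the 4 M-ATAC libraries were merged is not stated.

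By position, the same cytosines had 4.74% methylated reads in CTCF M-ChIP and 2.45% in M-ATAC at the CpG at 8 and 9 (difference 2.29, 0.914 to 3.74). At the CpG at 9 and 10 the values were 2.07% and 1.35% (0.720, 0.0958 to 1.35). The CpGs at 7 and 8 (1.54% and 1.21%) and at 12 and 13 (2.40% and 1.83%) had intervals of the difference that held 0. In both assays the CpG at 8 and 9 thus had the highest share of the 4. In M-ATAC this rested on 36 of 1467 reads, beside 65 of 3548 at 12 and 13, and whether these differed was not tested. Counted in each of their matches, the members that M-ATAC also measured were less methylated in CTCF M-ChIP, 2.42% over 1057 cytosines against 6.97% over the 1642 that it did not measure.

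Motif matches that the deposited list writes in lower case, the usual sign of sequence masked as repeats, had a high rate of methylation and held 229 of the 1625 methylated core reads. All of their bases were in lower case in 79 core motifs, or 5.16% of them, against 15.5% of the other measured motifs, a difference of -10.3 percentage points (-11.5 to -8.95). In these 79 motifs 17.2% of reads were methylated (15.3 to 19.3), against 4.59% (4.36 to 4.83) in the other core motifs, and the masked motifs were higher on 15 of 19 chromosomes. This was not particular to the core. Lower-case matches had 27.1% against 9.65% at positions 15 and 16, and 26.2% against 8.06% over all positions. The CpG at 8 and 9 remained the highest outside lower-case matches, with 9.73% (8.71 to 10.9) beside 2.65%, 4.07% and 5.73% for the CpGs at 7, 9 and 12. Without lower-case matches the core minus other differences were -2.81, 2.05, -5.06 and -4.90 points against positions 1 to 4, 5 and 6, 15 and 16, and 17 to 19, each with the same sign as before. This split was chosen after the data were seen.

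Peaks over methylated core CpGs were weaker. The fold enrichment that the peak caller gave to the merged CTCF M-ChIP peak had a median of 11.8 (95% order-statistic interval 11.5 to 12.2) over 1336 motifs with core methylation below 20%. It was 9.88 (9.13 to 10.4) over 180 motifs from 20% to 80% and 8.33 (7.20 to 8.97) over 15 motifs above 80%. The groups also differed in core reads per motif, with medians of 19, 11 and 7 reads, and in lower-case matches, which made up 3.67%, 12.8% and 46.7% of them. Coverage and fold rest on the same library. With at least 10 reads per cytosine the medians were 13.4 below 20% and 12.8 at 20% or above, closer than the 11.8 and 9.54 found with 5 reads.

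Pooled methylation was lower in groups of stronger peaks, which also had more reads. It was 9.99% (9.11 to 10.9) over the 383 motifs of lowest fold, then 6.39% and 5.09% over the next groups of like size, and 3.01% (2.74 to 3.32) over the 383 of highest fold. The median core reads per motif were 9, 15, 20 and 30 in the same order. By the score of the motif match pooled methylation was 9.01% (8.34 to 9.72) over the 384 motifs of lowest score, then 5.55% and 3.80%, and 3.17% (2.83 to 3.55) over the 382 of highest score. Here the median reads were 14.5, 15, 21 and 21. The part of reads in these orders was not tested. The 4 groups thus stood in order for both measures. With matches of motif p at most 1e-05 the group of lowest score had 3.08% and that of highest 2.80%, so that the order by score rested on the weaker matches. Spearman's rho between the core methylation of a motif and its fold was -0.0688, and with its score -0.140, over 1531 motifs that share the library and its depth.

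Fold was also set against methylation at each core CpG. For the CpG at 7 and 8 the median fold was 11.9 (11.5 to 12.5) below 20% methylation and 8.80 (8.27 to 9.97) at 20% or above, and for that at 12 and 13 it was 11.7 (11 to 12.5) and 8.79 (8.13 to 10.6). For the CpG at 9 and 10 the medians were 12 and 10.1, with intervals that did not overlap but whose nearest bounds both round to 11.4. For the CpG at 8 and 9 they were 11.4 (10.3 to 12.2) and 10.7 (9.44 to 12.4), with intervals that overlapped. Of its 173 motifs 37 (21.4%) reached 20% methylation, against 7.40% of those with the CpG at 7 and 8, 12.6% at 9 and 10 and 14.8% at 12 and 13. Spearman's rho between methylation and fold over the motifs of each CpG was -0.0070 at 7 and 8 (n = 473), 0.017 at 8 and 9 (n = 173), -0.078 at 9 and 10 (n = 454) and -0.136 at 12 and 13 (n = 399), which orders the CpGs otherwise than the medians do. The classes also differed in reads. The median reads per motif, below 20% and at 20% or above, were 18.5 and 9 at 7 and 8 and 15.5 and 13 at 8 and 9. They were 21 and 12 at 9 and 10 and 18.5 and 9 at 12 and 13. The part of reads in the fold differences was not tested, nor whether the CpGs differed in the relation of methylation to fold. Against the other measured motifs, core motifs had a median fold of 11.5 (11.2 to 11.8) beside 11.1 (11 to 11.2) and a lower score, 13.4 beside 17.2.

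Within each single library, fold was compared over the motifs that lay in one of its own peaks. In CTCF M-ChIP the log2 ratio of median fold, motifs below 20% core methylation over those at 20% or above, was 0.35 in replicate 1 and 0.16 in replicate 2. In CTCF M-ChIP-NC it was 0.19 in both replicates, and in CTCF ChIP 0.38 and 0.26. All 6 values were above 0, and those of CTCF M-ChIP overlapped both other groups. The motifs behind them differed, since CTCF M-ChIP peaks held 94.8% and 75.4% of motifs below 20% but 85.6% and 68.2% of those at 20% or above, CTCF M-ChIP-NC peaks 74.9% and 83.9% but 48.2% and 70.3%, and CTCF ChIP peaks 97.6% and 99.6% beside 97.9% and 100%. Motifs and methylation classes were set by reads and peaks of merged CTCF M-ChIP, so its folds draw on the values that the rule used. The tests against the other groups therefore cannot decide whether the groups differ, and nothing is concluded from them. The mean was 0.26 ± 0.13 (SD, n = 2) for CTCF M-ChIP, a difference of 0.07 from CTCF M-ChIP-NC (exact permutation test over libraries, two-sided, p = 1) and of -0.06 from CTCF ChIP (exact permutation test, p = 0.667). With 2 libraries against 2 the smallest p is 0.33, and adjusted over the 4 tests of libraries each p was 1. Over motifs with a peak in all 6 libraries the differences turned to -0.021 and 0.047, and without CTCF M-ChIP replicate 1 that from CTCF M-ChIP-NC was -0.03. The difference from CTCF ChIP was 0.03 without CTCF M-ChIP replicate 2 and 0.00075 without CTCF ChIP replicate 1.

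Core motifs were found in the peaks of single CTCF libraries about as often as other measured motifs. All of these motifs were chosen by peaks and reads of merged CTCF M-ChIP, so its shares draw on the values that the rule used. CTCF M-ChIP-NC, as aliquots taken ahead of conversion, is not independent of that choice. Only core minus other motifs was therefore compared. In CTCF M-ChIP 93.7% of core motifs lay in a peak of replicate 1 and 74.5% in a peak of replicate 2, and core minus other motifs was 2.02 and -4.84 percentage points. In CTCF M-ChIP-NC the shares were 71.5% and 82.2% and the differences 3.50 and -2.78, and in CTCF ChIP the shares were 97.6% and 99.6% and the differences 0.654 and 0.134. Replicates of a group thus lay on both sides of 0 in both groups made with methylated adaptors. Because the rule used CTCF M-ChIP alone, the tests that follow cannot decide whether the groups differ, and nothing is concluded from them. The difference of CTCF M-ChIP from CTCF M-ChIP-NC was -1.77 points (exact permutation test, two-sided, p = 0.667) and from CTCF ChIP -1.80 (exact permutation test, p = 1), where the replicates of CTCF M-ChIP had an SD of 4.85 (n = 2). It turned to 1.66 and 1.63 without CTCF M-ChIP replicate 2, the first also to 1.37 without CTCF M-ChIP-NC replicate 1, and the second to 0.0339 with peaks of −log10 q of at least 5.

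In libraries of accessible chromatin, core motifs were found more often than the others. The share in a peak was 19.99%, 22.4%, 19.3% and 17.8% in the 4 M-ATAC replicates, which exceeded that of other motifs by 9.97, 11.2, 9.75 and 9.09 percentage points. In M-ATAC-NC the differences were 12.4 and 13.1 and in ATAC 10.2 and 12.5, so that all 8 libraries had the same direction. Motifs with core methylation of 20% or above were seldom in such peaks, between 1.54% and 3.59% of them in M-ATAC against 20.1% to 25.1% of those below 20%. The peaks of these libraries were not used to choose the members. The 8 libraries are not independent, since all were compared over the same motifs and M-ATAC-NC were aliquots taken ahead of conversion.

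Core CpGs lay nearer to genes' starts and in CpG-richer sequence than motif CpGs in general. Of the core motifs 46.6% (44.1 to 49.1) were within 3 kb of a transcription start, against 33.1% (32.4 to 33.9) of the other measured motifs, a difference of 13.4 percentage points (10.8 to 16.1). A further 24.4% were elsewhere in genes and 29.0% between genes. A merged M-ATAC peak covered 47.6% of core motifs and 29.0% of the others (difference 18.6, 16 to 21.2). The median number of CpGs within 100 bp was 5 around core motifs and 3 around the others. The CpGs of the motif itself are not in this count, which was 0 for the methylated core motif in Flt1 named below.

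Methylation of the core followed these surroundings. It was 2.96% (2.70 to 3.25) at promoters, 9.81% (9.15 to 10.5) elsewhere in genes and 4.78% (4.38 to 5.22) between genes. Inside M-ATAC peaks it was 2.58% (2.35 to 2.84) and outside them 7.63% (7.23 to 8.05). With 0 to 2 CpGs within 100 bp it was 8.94%, with 3 to 5 CpGs 6.45%, with 6 to 10 CpGs 2.65% and with 11 or more 1.25% (1.02 to 1.53). The highest of these values were thus found elsewhere in genes and in CpG-poor sequence.

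The 10 core motifs with the highest lower Wilson bound of methylation show what a methylated core looked like. They are given in 5′ to 3′ direction of the motif strand, with GRCm38 (mm10) coordinates, and capitals mark the measured core CpGs.
Gcnt3, chr9:70040775-70040793, plus strand: tagcctCGCGaggacacta
Scfd2, chr5:74283746-74283764, minus strand: tgaacagCGgagggcagta
Jmjd1c, chr10:67192555-67192573, plus strand: gtgccagCGgaggccagaa
Flt1, chr5:147579470-147579488, minus strand: cggacaccCGggggaacac
6030458C11Rik, chr15:12812827-12812845, plus strand: aggccaggCGagggcatca
Ercc6, chr14:32569295-32569313, plus strand: aggccagaagaCGgcatta
Zfp706, chr15:37054770-37054788, plus strand: cggccagaagaCGgcggca
Ank2, chr3:127371985-127372003, plus strand: aggccagaCGagggagcta
Cdk5rap2, chr4:70179582-70179600, minus strand: aggccagaaggCGgcactg
Sh3rf1, chr8:61244359-61244377, minus strand: aggccagaaggCGgcactc
Of these 10 motifs 7 lay in introns, of the genes that name them except for Gcnt3, Zfp706 and Cdk5rap2, whose motifs lay between genes. The motif near Gcnt3, a glycosyltransferase gene, was 2696 bp from its start and had 23 of 24 reads methylated over 4 cytosines (95.8%, 79.8 to 99.3). It was the only one of the 10 within 3 kb of a transcription start and the only one with 2 core CpGs. The motif in an intron of Scfd2 had 8 of 8 reads methylated and that in an intron of Flt1, the gene of a VEGF receptor, 6 of 6. The motif in 6030458C11Rik had 9 of 10 and that in Sh3rf1, the gene of a ubiquitin ligase, 8 of 9. The remaining 4, at Ercc6, Zfp706, Ank2 and Cdk5rap2, had 5 of 5 reads methylated, the fewest that the rule admits, with a lower bound of 56.6%. Peak fold over the 10 ran from 6.31 to 12.7 and 6 of them were lower-case matches. The motif near Zfp706 was the only one with a measured C12 CpG, which also had 5 of 5 reads methylated.

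All 10 motifs lay in a peak of both CTCF ChIP libraries, and 1 of them in a peak of each of the 6 CTCF libraries. That was the motif in an intron of Jmjd1c, a gene of the Jumonji family, with 17 of 20 reads methylated (85.0%, 64.0 to 94.8). Its fold was 10.3 and 10.1 in CTCF M-ChIP, 7.19 and 7.22 in CTCF M-ChIP-NC and 17.4 and 23.6 in CTCF ChIP. It was also the only one of the 10 inside an M-ATAC peak, and M-ATAC had 4 of 7 reads methylated at its core. This match overlaps another motif match and has a low score of 7.89, as does the one near Gcnt3, with a score of 7.85, and to which of the matches the peak belongs was not tested. Jmjd1c was listed at 59.5 TPM, Zfp706 at 57.7 TPM and Gcnt3 at 0.07 TPM.

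After these values were seen, it was noticed that 5 of the 10 sequences begin with the same 7 bases, aggccag. This start was found in 22 core motifs, 10 of them lower-case matches, with 37 core cytosines and 21.2% methylated reads (17.7 to 25.3), against 4.89% (4.66 to 5.14) in the other core motifs. The start was picked for its methylation, and the value is a description.

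The 5 core motifs with the most reads and no methylated read looked different.
4930423D22Rik, chr12:81788832-81788850, minus strand: acgccacaCGgCGgcgctg
Crybg1, chr10:44148963-44148981, minus strand: tggccgCGCGggggcactg
Gm22994, chr4:129276629-129276647, minus strand: tgaccgCGCGggggcgcac
Pkn3, chr2:30077587-30077605, minus strand: cggccaCGCGggagcagcg
1700001O22Rik, chr2:30794663-30794681, minus strand: gcaccgCGCGggggcagtg
Each is named for the gene with the nearest transcription start. All lay outside genes, and 3 of them were within 3 kb of a transcription start. All 5 held 2 core CpGs, which raises the reads of a motif, and in 4 of them these began at positions 7 and 9. The motif near 4930423D22Rik, a noncoding gene, had 0 of 121 reads methylated, which allows a share of up to 2.48%, and its C12 CpG had 0 of 58. The motifs near Crybg1, at 119 bp from its start, and near Gm22994, a miRNA gene, had 0 of 104 reads, which allows up to 2.88%. That near Pkn3, the gene of a protein kinase, lay 88 bp from its start and had 0 of 96 reads, which allows up to 3.13%, and that near 1700001O22Rik had 0 of 85, which allows up to 3.53%. All 5 were in a peak of each of the 6 CTCF libraries, with a merged fold of 16.3 to 21.5, above that of each of the 10 methylated motifs, and 3 lay in an M-ATAC peak. None was a lower-case match, and that near Pkn3 overlaps another motif match. M-ATAC had 0 of 74 reads methylated at the core near Crybg1, 0 of 33 near Pkn3 and 0 of 21 near 4930423D22Rik. As with the methylated motifs, coverage and fold come from the same reads. These 5 were chosen for their reads, so the choice itself favoured a high fold.

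The fixed lists were searched for genes with a core CpG within 3 kb of a transcription start, and their counts were not set against all genes. Of 20 pluripotency genes 1 did, Mycn, with 2 motifs and 0 of 24 reads methylated, which allows up to 12.5%. One lay in an intron of Mycn, at 1466 bp from its start, and the other between genes, at 682 bp. They are shown because they are the only ones of this list, and the capitals again mark the measured core CpGs.
Mycn, chr12:12939141-12939159, minus strand: tggccagcaggCGgcgttg
Mycn, chr12:12942587-12942605, minus strand: tctccgCGaggtgtcgcct

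Of 30 imprinted genes, 29 of them annotated, 3 had such a motif, with 1 of 41 reads methylated (2.44%, 0.432 to 12.6).
Grb10, chr11:12025862-12025880, plus strand: tcgccacaCGgggtcgctg
H19, chr7:142580762-142580780, minus strand: ctaccgCGCGgtggcagca
Zrsr1, chr11:22969662-22969680, minus strand: tctactgtaggCGgcagta
The motif in a UTR of Grb10, a growth factor receptor adaptor, had 0 of 23 reads methylated, which allows up to 13%, and 0 of 22 at its C12 CpG, and its peak fold was 15.3. The motif 2628 bp from the start of H19, an imprinted noncoding RNA, had 0 of 12, which allows up to 25%, with a fold of 5.76. That near Zrsr1 lay in an intron of Commd1 and had 1 of 6. Alleles were not told apart, and immunoprecipitated chromatin holds the bound alleles above all.

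The clustered protocadherin and Hox genes, whose clusters are known to hold CTCF sites, had core motifs at 9 of 102 genes. Of 169 reads over their 16 core cytosines 2 were methylated, or 1.18% (0.325 to 4.21). The 6 protocadherin motifs lay 28 to 133 bp from the start of Pcdhac1, Pcdhb6, Pcdhb8, Pcdhb16, Pcdhb17 and Pcdhgb1. Of these Pcdhb8 had 0 of 32 reads methylated, which allows up to 9.38%, Pcdhac1 had 1 of 28 and Pcdhb6 1 of 16. The Hox motifs were all unmethylated at this depth.
Hoxa5, chr6:52204655-52204673, minus strand: tctccagCGggtggcgctc
Hoxa10, chr6:52240537-52240555, minus strand: ccgccaCGagatggcgcac
Hoxd10, chr2:74694225-74694243, minus strand: tgatctctaggCGgcgctc
The motif near Hoxa5 held the CpG at 8 and 9, lay 77 bp from the start in an intron of Hoxa3 and had 0 of 28 reads methylated, which allows up to 10.7%. The motif in a UTR of Hoxa10 had 0 of 19, which allows up to 15.8%, and M-ATAC had 1 of 13 there. The motif in a coding exon of Hoxd10 had 0 of 15, which allows up to 20%. The share of this list lay below the 5.12% over all core cytosines, but the search took motifs within 3 kb of a transcription start alone. At promoters the core had 2.96%, which lies inside the interval of the list.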

How the data were processed

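Methylation was measured in merged CTCF M-ChIP and merged M-ATAC of mESC, and occupancy in single libraries of both and of their controls. The authors trimmed reads with Trim Galore 0.4.4, aligned bisulfite reads to mm10 with Bismark 0.18.1 on Bowtie2 and ATAC and ChIP reads with Bowtie2, used SAMtools 1.3 and called peaks with MACS2. Which of these aligners served the NC aliquots is not stated. The authors gave methylation as counts of methylated and unmethylated reads per cytosine and as percent. Deposited peak lists give a score, the fold enrichment over background (a ratio) and −log10 p and q per peak. The deposited motif matches carry a FIMO score, a p-value and a q-value. The authors gave expression as TPM, for merged replicates.

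Cytosines with at least 5 reads were joined to motif matches by start and chromosome and kept at positions 7 to 14. The members and lists were chosen with earlier results of these data known. Median coverage was 10 reads per cytosine, where 1 read is a step of 10%, and 20% at 5 reads. The deposited peak lists hold no totals of sequenced reads, which the authors report separately and which were not used here. Pooled shares carry 95% Wilson intervals and differences Newcombe intervals, and both cover counting error only, since reads without molecular identifiers are not independent molecules. A share of 0 is given with the limit that 3 counts set. Fisher's exact tests with Benjamini-Hochberg adjustment at 0.05 compared reads of merged libraries, and exact permutation tests compared libraries. Places come from the GENCODE annotation of GRCm38, with promoters within 3 kb of a transcription start and CpGs counted within 100 bp, without those of the motif itself.

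Motifs were named by a rule written before the data were examined here, though with those earlier results known: the 10 with the highest lower Wilson bound of core methylation, the 5 with most reads and 0 methylated, the 5 largest core minus C12 differences each way among those called, and up to 10 CpGs called between strands, outside chromosome 18, with fixed gene lists. The calls were 0, so the latter kinds named none. Alternatives changed the coverage minimum, the motif p, the overlap of matches, the peaks, the core's limits, the class limit, the promoter distance and the libraries. The tests of single sites were tried on simulated reads with near-complete differences or none, so smaller differences were not covered. The 6 KLF4 peak lists, made with PeaKDEck, were left out because they have no bearing on CpGs in CTCF motifs. Computations used Python 3.11.15, NumPy 2.4.6, pandas 2.3.3 and SciPy 1.17.1.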

Additional observations from a re-analysis of the deposited data

How the results depend on the processing

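Of 107 alternatives, 52 moved a value beyond its error. A value of the other sign was found in 10: 3 between libraries under another choice of peaks, 6 on leaving out 1 library, and the difference between strands with at least 10 reads (0.0126). The 4 differences of the core from other positions kept their sign under each of their 11 alternatives, from -5.32 to -2.81 percentage points against positions 1 to 4, 1.42 to 3.46 against 5 and 6, -8.67 to -5.06 against 15 and 16, and -8.18 to -4.90 against 17 to 19. Counts of called motifs, CpGs and cytosines stayed at 0 with at least 10 reads, and on the motif strand alone for the comparison with C12.

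The values below are core methylation in percent, then the core minus positions 1 to 4, 5 and 6, 15 and 16, and 17 to 19, as far as they moved. With at least 1 read they were 5.92, 2.83 (5 and 6), -7.65 and -7.33. With more than 5 reads methylation was 4.78 and the difference from 15 and 16 was -6.78. With at least 10 reads they were 3.50, -3.28, 1.42, -5.69 and -5.11. With motif p at most 1e-05 they were 3.50, -5.32, 1.72, -8.67 and -7.84. Without overlapping matches they were 4.46, -4.77, 1.92, -7.85 and -7.49. In peaks of both replicates they were 4.68, -3.10, -6.12 (15 and 16) and -5.74. As means of percentages they were 6.72, -4.19, 3.46, -8.17 and -8.18. With the core at 8 to 13 they were 5.61, -3.23, 2.86, -6.61 and -6.37. Without lower-case matches, an alternative chosen after seeing the data, they were 4.59, -2.81, 2.05, -5.06 and -4.90. With each cytosine counted once the difference from positions 1 to 4 was -4.08. The cause was not tested.

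Core minus C12 was -0.545 on the motif strand alone, and CTCF M-ChIP minus M-ATAC was 0.246 with at least 10 reads. Median fold below 20% methylation was 13.4 with at least 10 reads and 12.2 with motif p at most 1e-05, and at 20% or above it was 12.8 with at least 10 reads. Methylation in the group of lowest score was 6.50% with at least 10 reads, 3.08% with motif p at most 1e-05 and 8.04% without lower-case matches, and in that of highest score 2.29% and 2.80% under the first 2 of these. Within 1 kb of a start lay 32.0% of core motifs.

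Between libraries, the log2 fold difference of CTCF M-ChIP was -0.021 from CTCF M-ChIP-NC and 0.047 from CTCF ChIP over motifs with a peak in all 6 libraries, both turned in direction, and the share difference from CTCF ChIP was 0.0339 with −log10 q of at least 5. With that limit of q the share difference from CTCF M-ChIP-NC was -0.144. With a class limit of 50% the log2 difference was 0.026 from CTCF M-ChIP-NC and -0.092 from CTCF ChIP. The cause was not tested. Leaving out 1 library at a time, the log2 difference ran from -0.03 to 0.16 against CTCF M-ChIP-NC and from -0.16 to 0.03 against CTCF ChIP, and the share difference from -5.20 to 1.66 and from -5.24 to 1.63. With replicates of the same number taken as a block, the values were 0.07, -0.06, -1.77 and -1.80 in the same order (exact sign-flip test over pairs, p = 1, 0.5, 0.5 and 1, smallest possible 0.5). By number, the share differences from CTCF M-ChIP-NC were -1.48 and -2.06, of 1 sign, and the log2 differences from CTCF ChIP were -0.031 and -0.093, also of 1 sign. The log2 differences from CTCF M-ChIP-NC, 0.161 and -0.026, and the share differences from CTCF ChIP, 1.37 and -4.98, had both signs. For the share, replicate 1 minus 2 was 6.86 in CTCF M-ChIP and 6.28 in CTCF M-ChIP-NC, so that leaving out 1 library compares unlike numbers. The controls were aliquots, but the sources do not say which number each matches.

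Depth limits single sites. At the median of 10 reads a single site cannot show a level between 0 and 10%, and 1 merged table gives no spread between replicates. With 2 libraries against 2 the exact tests used here cannot pass 0.05, so their p-values say nothing of whether the groups differ.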
